A study of Mus musculus with 87 samples.

Results

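The growth hormone and IGF axis genes described here are 10 genes of the hepatic growth hormone pathway, *Ghr*, *Stat5a*, *Stat5b*, *Socs2*, *Cish*, *Igf1*, *Igfals*, *Igfbp1*, *Igfbp2* and *Igfbp3*. They were chosen by symbol and not by their values. Each symbol named 1 protein-coding row among the 37991 genes of the table, and all 10 were among the 15396 genes detected, that is, above a log2 RPKM of -1.5 in at least 1 liver. RPKM scales a gene's read count by transcript length in kilobases and by library depth. Values below are RPKM unless they are called a difference, and a difference is always on the log2(RPKM + 0.25) scale, which understates changes of transcripts near 0.

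The livers came from male C57BL/6 mice kept on a light and dark cycle with food only at night, and each library held poly(A) RNA from 1 whole liver. All mice are labelled 12 to 14 weeks, which is the age at surgery, so livers taken weeks after PH came from older mice. X marks partial hepatectomy (PH), S a sham operation in which the abdomen was opened and the liver left whole, and C no surgery, followed by the hours, or weeks (W), since surgery. Surgery fell at Zeitgeber Time (ZT) 2, where ZT counts hours from lights on. The livers used here were 9 C0, 3 C4 and 2 C4W without surgery, 6 S1, 5 S4, 3 S10, 3 S20 and 3 S48 after sham, and 6 X1, 3 X4, 6 X10, 6 X20, 3 X28, 6 X36, 3 X44, 5 X48, 3 X72, 3 X1W and 2 X4W after PH. C0, S48, X48 and X72 shared a clock hour (ZT2), as did C4, S4, X4 and X28 (ZT6), and S20, X20 and X44 (ZT22), so C0 differs in the hour of the day from every sham and PH group of 1 to 44 h. No clock hour is given for the groups of weeks in the sources used here.

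Growth hormone from the pituitary binds its receptor on hepatocytes, the receptor activates the kinase JAK2, and JAK2 phosphorylates STAT5A and STAT5B, which enter the nucleus and raise transcription of *Igf1*, *Igfals*, *Socs2* and *Cish*. The liver is the main source of circulating IGF1, most of which travels in a complex with IGFBP3 and the acid-labile subunit encoded by *Igfals*. In male rodents growth hormone is released in pulses. SOCS2 and CIS, the product of *Cish*, dampen receptor signalling, whereas IGFBP1 and IGFBP2 bind IGFs in smaller complexes, and *Igfbp1* in particular is repressed by insulin and induced by fasting and stress.

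On the mm9 assembly the genes lie at chr15:3267760-3533492 (*Ghr*, minus strand), chr11:100720665-100746483 (*Stat5a*, plus), chr11:100642045-100712038 (*Stat5b*, minus), chr10:94847996-94879814 (*Socs2*, minus), chr9:107198357-107205115 (*Cish*, plus), chr10:87321010-87399792 (*Igf1*, plus), chr17:25014600-25018955 (*Igfals*, plus), chr11:7097785-7102549 (*Igfbp1*, plus), chr1:72871077-72899048 (*Igfbp2*, plus) and chr11:7106089-7113926 (*Igfbp3*, minus). *Stat5a* and *Stat5b* are 8.6 kb apart and *Igfbp1* and *Igfbp3* 3.5 kb apart. *Stat5a* and *Stat5b* are near-identical in places, with 6.99% of the 100-base windows of the longest *Stat5a* transcript and 5.18% of those of *Stat5b* present in the other, and 4.25% of the *Socs2* windows are also in *Gm9847*. The read counting could split such reads, so the values of these genes carry that uncertainty.

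Upstream sequences are shown for *Igfbp1*, the gene with the widest range of values, and for *Igfals*, since its windows held matches to a STAT motif. They come from RefSeq promoters on GRCm38.p6, another assembly than the mm9 of the values, and the 250 bases before each annotated start were searched on both strands. The search covered TTCNNNGAA (STAT), GTAAACA and CAAAACA (FoxO), TGACTCA (AP-1) and CACGTG (E-box). RefSeq entries were matched for 9 of the 10 genes, with *Socs2* the exception. In the *Igfbp1* window, chr11:7197537-7197786 on the plus strand, the capitals mark CAAAACA, a FoxO-type motif whose first base is at -108 and which 5.56% of 32851 promoter windows hold.
Igfbp1: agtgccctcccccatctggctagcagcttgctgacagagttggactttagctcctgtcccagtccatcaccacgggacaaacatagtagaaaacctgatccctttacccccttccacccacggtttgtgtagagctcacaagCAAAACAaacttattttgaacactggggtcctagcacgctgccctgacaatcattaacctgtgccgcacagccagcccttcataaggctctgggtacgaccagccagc
*Igfals* has 3 annotated starts on the plus strand, and in the windows of 2 of them the sites at chr17:24877598-24877626 (-236) and chr17:24878163-24878191 (-58) are shown with TTCNNNGAA in capitals, a motif that 7.02% of windows hold.
Igfals at -236: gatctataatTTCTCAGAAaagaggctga
Igfals at -58: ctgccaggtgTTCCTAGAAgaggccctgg
Not shown are matches to GTAAACA at -242 in an *Igfals* window, and to CACGTG (-142) and TGACTCA (-39) in *Igfbp2* windows. Of all windows 3.17%, 6.02% and 4.46% hold these letters. All these matches are descriptions of letters and were not tested as binding sites. A match to TTCNNNGAA was found for *Igfals* alone among the 9 genes, and the absence of these letters from a window of 250 bases says nothing about a factor's action on the other genes.

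Library totals, estimated from the smallest steps between values, ran from 12.2 to 48.8 M reads with a median of 26.7 M. The 6 hepatocyte markers summed to at least 32590 RPKM in each liver, and the 5 markers of pancreatic acinar cells never summed to more than 0.339 RPKM. In whole liver, fewer cells of a type and less RNA per cell cannot be told apart. The livers of S1, S4, X1, X10, X20 and X36 were collected in 2 experimental periods and those of C0 in 3, the 3 X4 livers used here are replicates 4 to 6 of that group, and which replicate belonged to which period is not named in the sources used here. In S1, replicates 1 to 3 stood apart from replicates 4 to 6, with *Ghr* at 39.0 to 45.3 against 52.9 to 56.1, *Stat5a* at 0.616 to 0.810 against 2.04 to 2.19, and *Stat5b* at 7.87 to 8.40 against 13.3 to 16.6. Against C0, *Igfbp1* was called in S1 with all livers and with either triplicate, whereas *Stat5a* (-1.06), *Socs2* (1.95) and *Igfbp3* (-0.74) were called with replicates 1 to 3 of S1 only.

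A gene was called when its Benjamini-Hochberg adjusted p, over the 15396 genes in limma, was under 0.05 and its difference was beyond 0.5. PH against sham at the same hour asks which differences go with the resection rather than with surgery as such. At 1 h limma called 0 of the 10 genes, with 0 also at an unadjusted p under 0.05, where 0.65% of all genes were called. With 1 triplicate of each group, *Stat5a* was called at 1 h in opposite directions, 0.61 in replicates 1 to 3 and -0.79 in replicates 4 to 6, and *Stat5b* was called in the latter (-0.82). At 4 h 1 of 10 was called (*Stat5a*, higher; 8.64% of all genes), at 10 h 1 of 10 (*Igfals*, lower; 7.02%) and at 20 h 1 of 10 (*Igfbp1*, higher; 7.11%). At 48 h 5 of 10 were called, against 27.2% of all genes (24.5% higher and 2.69% lower). *Ghr*, *Socs2* and *Igfbp3* were lower after PH than after sham, and *Stat5a* and *Igfbp2* higher. Against C0, *Socs2* (1.61), *Stat5a* (-0.54) and *Igfbp2* (-0.80) were called in S48 but not in X48 (-0.085, 0.11 and 0.21). With every library shifted to the same median, the share of called genes that were higher went from 36.5% to 48.2% at 4 h and from 63.3% to 42.1% at 20 h, and *Stat5a* and *Igfbp1* kept their calls.

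**Figure D1:**
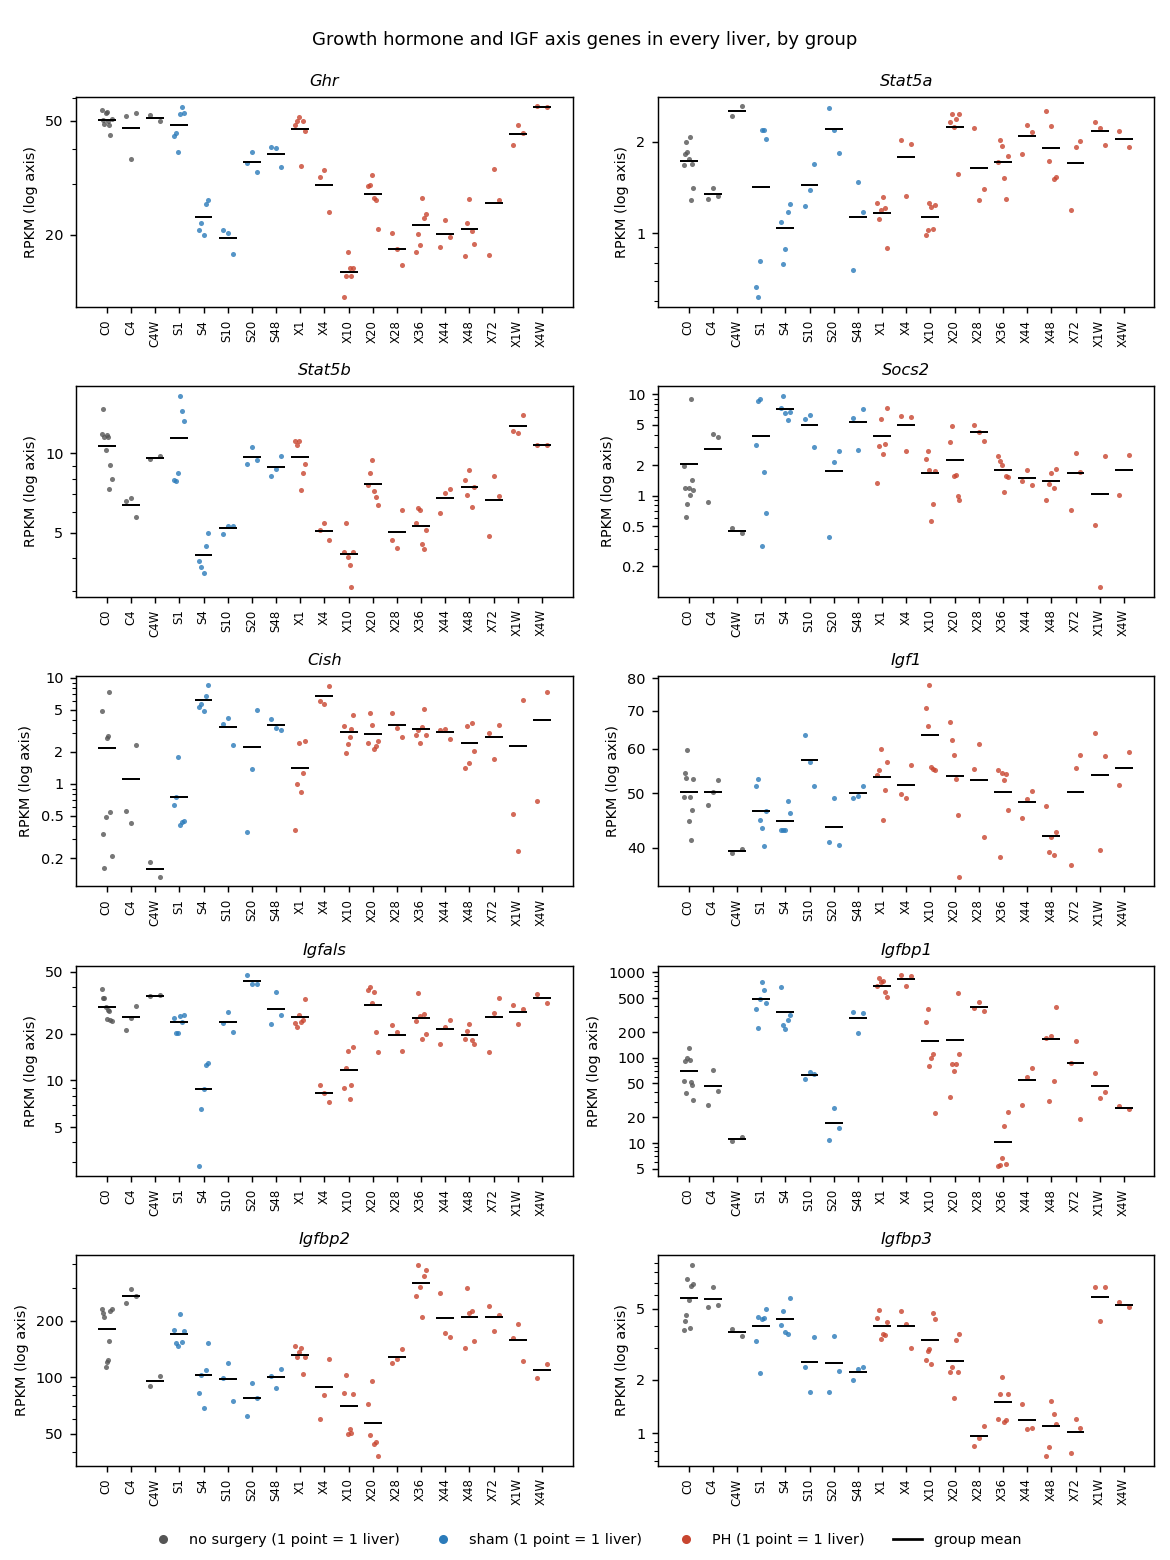
RPKM of each gene in every liver (log axis) by group, with 1 point per liver, bars at the group means, and grey, blue and red for no surgery, sham and PH. *Igf1* stayed between 35.5 and 77.7 in all 80 livers, whereas *Igfbp1* spanned 174.5-fold.

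The 48-h comparison was made within 1 experimental period. Its median over all genes tested was 0.27 rather than 0, so the differences were also read relative to that shift: -1.15 for *Ghr*, -1.97 for *Socs2*, -1.17 for *Igfbp3*, 0.38 for *Stat5a* and 0.74 for *Igfbp2*. When every library was shifted to the same median, the share of called genes that were higher went from 90.1% to 30.7%, and the split of the 10 genes from 2 higher and 3 lower to 0 higher and 7 lower. *Stat5a* (0.21, adjusted p = 0.426) and *Igfbp2* (0.57, adjusted p = 0.0824) then lost their calls. *Stat5b* (-0.70), *Igf1* (-0.70), *Igfals* (-0.98) and *Igfbp1* (-1.73) gained one. The lower levels of *Ghr*, *Socs2* and *Igfbp3* in X48 than in S48 were called on both scales. Summed hepatocyte markers were at 38710 to 42890 RPKM in X48 against 42730 to 52610 in S48, with 2 of 6 called lower, and cholangiocyte markers at 31.7 to 44.4 against 19.6 to 29.5, with 1 of 5 called higher. Of all genes, 2.69% were called lower and 24.5% higher. Neutrophil markers were at 1.25 to 7.08 against 2.98 to 6.44. The part of these in the differences was not tested.

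**Figure D2:**
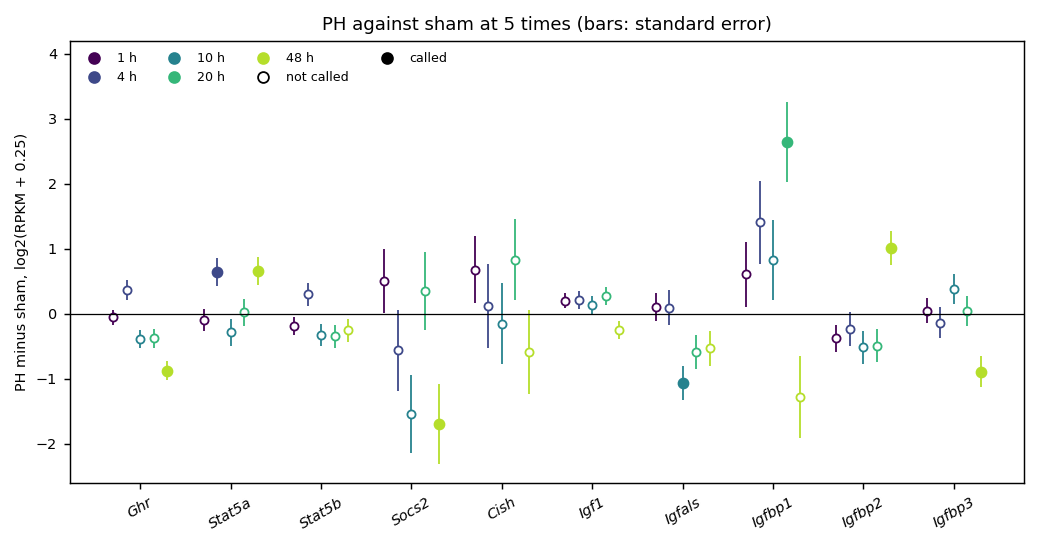
Difference between PH and sham livers for each gene at the 5 hours with sham livers, as log2(RPKM + 0.25), with bars for the standard error and filled points for called differences. Of 50 differences 8 were called, 5 of them at 48 h.

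The resting liver, C0, served as the control for every sham and PH group, so these comparisons share the same 9 livers and are given side by side without counting overlaps. After sham, 1 of the 10 genes was called in S1 (7.77% of all genes), 8 in S4 (34.4%), 5 in S10 (29.1%), 3 in S20 (12.1%) and 5 in S48 (8.88%). After PH, 2 were called in X1 (13.5% of all genes), 7 in X4 (38.2%), 7 in X10 (36.4%), 4 in X20 (24.1%), 7 in X28 (24.9%), 6 in X36 (35%), 3 in X44 (39.2%), 3 in X48 (38.1%) and 3 in X72 (33.2%). At 1 and 4 weeks limma called 0 of the 10, against 16.9% and 5.62% of all genes, with 0 and 1 at an unadjusted p under 0.05. From 36 h on, the calls against C0 also tilted with the scaling, since shifting every library to the same median took the share of called genes that were higher from 73.5% to 33.4% in X36, from 78.5% to 28.2% in X44, from 79.9% to 27.5% in X48 and from 80.1% to 35.7% in X72. The 10 genes were then 0 higher and 5 lower in X36, X44 and X48 and 0 higher and 4 lower in X72, in place of 2 and 4 in X36 and 0 and 3 in the others. Unshifted, 25.7% of all genes were higher and 9.29% lower in X36, 30.8% and 8.42% in X44, 30.4% and 7.66% in X48, and 26.6% and 6.59% in X72. Earlier the same shift took it from 29.5% to 46.6% in X4, from 58.3% to 35.9% in X10, from 68.4% to 34.5% in X20, from 35.9% to 53.4% in X1, from 31.3% to 62.2% in S1, from 34.1% to 47.8% in S4, from 61.3% to 33.6% in S10 and from 64.6% to 33.4% in S20. At 1 week it went from 73.5% to 32.3% and at 4 weeks from 62.8% to 26.4%, and at 4 weeks *Igfbp2* was then called lower (-0.80). Of the 10 genes, *Cish* lost its calls in X10, X20, X28 and X36, *Socs2* in X28 and *Igfbp2* in X36, and no called difference changed sign. Lower calls against C0 covered 22.7% of all genes in S4, 26.9% in X4, 11.2% in S10 and 15.2% in X10. Stellate markers were called lower against C0 in 6 of 7 in S4, 5 of 7 in X4, 5 of 7 in S10 and 3 of 7 in X10, and cholangiocyte markers in 3 of 5, 3 of 5, 3 of 5 and 4 of 5. Endothelial markers were lower in 2 of 7 in S4, 3 of 7 in X4, 5 of 7 in S10 and 2 of 7 in X10, and Kupffer cell and macrophage markers in 0 of 7, 4 of 7, 0 of 7 and 3 of 7. The part of these in the early differences of the 10 genes was not tested.

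Pairs of groups from 1 clock hour were compared as well. Against C4, 7 of the 10 genes were called in S4 (43.3% of all genes) and 5 in X4 (45.6%), and C4 itself differed from C0 in 1 (7.89%). The C4 livers came from 1 period, in which no S4 or X4 liver was collected, so that surgery and period cannot be told apart in the comparisons with C4. X28 differed from X4 in 3 genes (28.3% of all genes) and X44 from X20 in 2 (16.1%). With the same median in every library, the share of called genes that were higher went from 28.3% to 48.5% in S4 against C4, from 25.6% to 47.4% in X4 against C4, from 73.6% to 48% in C4 against C0, from 79.8% to 53.3% in X28 against X4 and from 80.6% to 38.9% in X44 against X20. *Ghr* in X4 against C4 was then -0.40 and no longer called.

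*Ghr* encodes the growth hormone receptor. In the 9 C0 livers it ran from 44.6 to 54.5 with a median of 50.1, a coefficient of variation of 6.17%, the lowest of the 10 genes. After surgery it was at 20.8, 22.0, 20.1, 25.7 and 26.5 in the S4 livers, at 20.8, 20.3 and 17.2 in S10, and at 12.1, 14.4, 17.4, 15.3, 14.3 and 15.3 in X10. All of these lay below every C0 liver.

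Against C0, *Ghr* fell by 1.13 in S4 and by 1.37 in S10, and it fell in 8 of the 11 post-PH groups, every one from 4 to 72 h. The largest fall was 1.76 in X10 (SE 0.11, adjusted p = 1.42e-22), a 3.38-fold lower level. The 3 X28 livers held 20.3, 17.8 and 15.7, and the 3 X44 livers 18.1, 22.5 and 19.6. Sham and PH livers parted by 48 h. In sham livers the gap from C0 had narrowed by then, to -0.49 in S20 and -0.39 in S48, neither past the 0.5 required. The S48 livers were at 40.6, 40.1 and 34.6 and the X48 livers at 16.9, 22.1, 26.7, 20.7 and 18.6, with no overlap. The difference between them was -0.88 (SE 0.15, adjusted p = 1.63e-06 in limma), and it stayed called in all 19 alternatives run. At 4 h without surgery, *Ghr* was at 51.8, 36.9 and 53.1, and S4 was 1.02 lower than these C4 livers of the same hour (adjusted p = 3.11e-08). Both 1 and 4 weeks after PH *Ghr* was not called against C0. The livers held 41.1, 48.2 and 45.3 at 1 week and 56.2 and 55.7 at 4 weeks.

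STAT5A and STAT5B carry the receptor's signal to the nucleus. *Stat5b* was the more abundant per length, at 7.31 to 14.8 in C0 against 1.29 to 2.07 for *Stat5a*. *Stat5b* fell early in both kinds of surgery. The S4 livers held 3.90, 3.71, 3.51, 4.45 and 5.00, the X4 livers 5.11, 5.46 and 4.71 and the X10 livers 3.11 to 5.43, each below every C0 liver.

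The differences of *Stat5b* from C0 were -1.31 in S4, -1.0 in X4, -0.98 in S10 and -1.31 in X10, and it was lower also in X28 (-1.03), X36 (-0.96), X44 (-0.61) and X72 (-0.66). C4 livers, without surgery, at 6.61, 6.76 and 5.72, were 0.70 lower than C0 (adjusted p = 0.00261 in limma), the only call among the 10 genes in that comparison. The C0 livers came from 3 periods, 1 of them shared with C4, and spread widely. *Stat5b* was at 7.31 to 9.03 in replicates 7 to 9 and at 10.3 to 14.8 in the other 6. All C4 livers lay below every C0 liver, whichever of these shared their period. The part of the period in the size of the difference was not tested. The call of C4 against C0 was lost in 2 of 19 alternatives. S4 was 0.61 lower than C4 (adjusted p = 0.00293), a call that was lost with every library at the same median (-0.40), and X4 was not called against C4 (-0.31, adjusted p = 0.19). Of the 5 PH-against-sham comparisons limma called 0 for *Stat5b*, and 1 had an unadjusted p under 0.05.

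*Stat5a* took another course. It fell in S4 (-0.62), S48 (-0.54, lost in 14 of 22 alternatives) and X10 (-0.52, lost in 6 of 22) against C0. The S48 livers were at 0.757, 1.47 and 1.18 and the X48 livers at 2.53, 1.73, 2.25, 1.51 and 1.54. PH livers were thus all higher at 48 h (0.65, SE 0.22, adjusted p = 0.011 in limma), by a margin of 1.51 against 1.47 between the nearest livers. Without the livers numbered 1 the difference was 0.34 (adjusted p = 0.318) and without those numbered 3 it was 0.63 (adjusted p = 0.0657), and it was 0.45 with a pseudocount of 1. At 4 h the X4 livers held 2.03, 1.33 and 1.97 and the S4 livers 1.09, 0.796, 0.890, 1.18 and 1.25, a difference of 0.64 (SE 0.22, adjusted p = 0.0335) that was lost in 10 of 19 alternatives. Leaving out the livers numbered 2, 3, 4 or 6 each gave 0.57 to 0.60 with adjusted p between 0.108 and 0.152. The X4 livers are replicates 4 to 6, and with replicates 4 to 6 alone the difference was 0.45 (adjusted p = 0.194 in limma). At 1 h the direction hung on the triplicate, with X1 above S1 in replicates 1 to 3 (0.61, adjusted p = 0.0383) and below it in replicates 4 to 6 (-0.79, adjusted p = 0.0188). For *Stat5b* replicates 1 to 3 gave 0.44 (adjusted p = 0.0898 in limma), which was not called, and replicates 4 to 6 gave -0.82 (adjusted p = 0.00401). The part of the collection period in this was not tested.

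*Socs2* and *Cish* are transcribed in response to STAT5, and their products feed back on the receptor. Among the 9 C0 livers they varied most of the 10 genes, with coefficients of variation of 129.1% and 117.4%. *Socs2* was at 1.96, 1.18, 0.609, 0.831, 1.2, 1.0, 8.95, 1.42 and 1.13 there, and *Cish* at 4.88, 0.337, 0.163, 0.486, 2.71, 2.83, 7.38, 0.538 and 0.211. C0 replicate 7 held the highest level of both.

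Over the 80 livers the Pearson correlation of *Socs2* with *Cish* on the log scale was 0.572, and 0.595 after subtracting the group means, a description across livers that share batches and depth. One week after PH, replicate 3 held 2.48 for *Socs2* and 6.12 for *Cish*, whereas replicates 1 and 2 held 0.509 and 0.125, and 0.518 and 0.231. The livers of 1 group thus differed together in the pair.

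**Figure D3:**
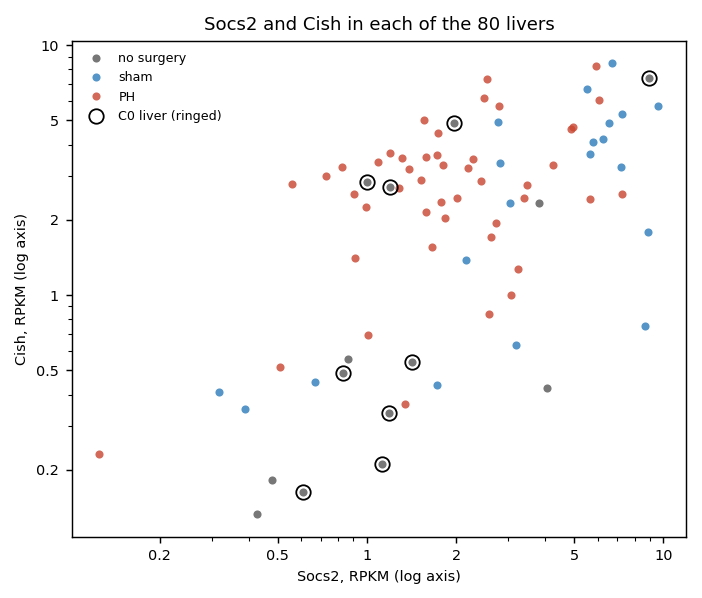
*Cish* against *Socs2* in each of the 80 livers, both in RPKM on log axes, coloured by no surgery, sham and PH, with the 9 C0 livers ringed. The C0 livers span 0.163 to 7.38 for *Cish* and 0.609 to 8.95 for *Socs2*, where all 80 livers span 0.133 to 8.46 and 0.125 to 9.63.

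At 4 h *Cish* stood uniformly high after surgery, and *Socs2* after sham. *Cish* was at 5.28, 5.71, 4.88, 6.66 and 8.46 in S4 and at 6.05, 5.71 and 8.28 in X4, against 0.557, 0.426 and 2.34 in C4 at the same hour, with no overlap. Its differences from C4 were 2.5 in S4 (adjusted p = 0.000756 in limma) and 2.61 in X4 (adjusted p = 0.00162). *Socs2* was at 7.24, 9.63, 6.58, 5.51 and 6.73 in S4 and at 6.07, 2.78 and 5.95 in X4, against 0.862, 4.05 and 3.81 in C4, so that S4 lay above C4 and X4 overlapped it. S4 was higher than C4 by 1.44 (adjusted p = 0.0416), a call lost in 7 of 19 alternatives, and X4 was not called.

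Against C0 *Cish* rose in S4, X4, X10, X20, X28 and X36 by 1.11 to 2.27, and *Socs2* in S4, S10, S48, X1, X4 and X28 by 1.1 to 2.1. Many of these calls were unstable, since *Cish* in X20 and X28 lost its call in 15 of 22 alternatives and *Socs2* in X1 and X28 in 14 of 22. Without C0 replicate 7 no *Socs2* or *Cish* call was lost, and *Cish* was called also in X44 (1.52), X48 (1.14), X72 (1.34), S10 (1.63) and S48 (1.73). At 48 h the S48 livers held *Socs2* at 5.77, 2.81 and 7.22 and the X48 livers at 0.909, 1.31, 1.65, 1.2 and 1.83, all lower after PH. The difference was -1.70 (SE 0.62, adjusted p = 0.021 in limma). Without the livers numbered 1 it was -1.47 (adjusted p = 0.139), without those numbered 3 -1.49 (adjusted p = 0.105), and with no filter on low values its adjusted p was 0.057. *Cish* overlapped between the same groups, at 4.11, 3.38 and 3.25 in S48 against 1.41, 3.55, 1.56, 3.71 and 2.03 in X48, and was not called.

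*Igf1* encodes the circulating growth factor itself. It was called in 0 of the 29 comparisons with limma, 4 of which had an unadjusted p under 0.05, and its highest level over all 80 livers was 2.19 times the lowest, the smallest ratio of the 10 genes. It was at 41.3 to 59.7 (median 49.3) in C0. The X10 livers held 70.9, 65.9 and 77.7 in replicates 1 to 3 and 55.6, 55.1 and 54.9 in replicates 4 to 6, and exceeded C0 by 0.33 (adjusted p = 0.00386 in limma), under the 0.5 required. The X48 livers, at 47.4, 39.4, 41.8, 38.7 and 42.5, were all below the S48 livers, at 49.0, 49.4 and 51.5, a difference of -0.25 (SE 0.14, adjusted p = 0.141). On the scale with the same median in every library, *Igf1* was called lower in X48 against S48 (-0.70), in X48 against C0 (-0.70) and in X44 against C0 (-0.52). With replicates 1 to 3 alone of the groups collected in 2 periods, it was called higher in X10 against C0 (0.51) and in X20 against S20 (0.53).

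*Igfals*, which encodes the acid-labile subunit of the circulating complex, moved widely while *Igf1* moved little. At 4 h it was at 2.8, 6.54, 8.88, 12.7 and 13 in S4 and at 9.30, 8.31 and 7.29 in X4, below every C4 liver (21.1, 25.2 and 30.1) and every C0 liver (24 to 38.7). It fell by 1.67 in S4 and by 1.58 in X4 against C4 (adjusted p = 3.31e-07 and 9.41e-06 in limma). The fall at 4 h was thus present in both kinds of surgery.

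The 2 operations parted at 10 h. The S10 livers were back at 23.4, 27.6 and 20.5, whereas the X10 livers stayed at 8.89, 12.0, 15.4, 7.61, 9.37 and 16.4. PH livers were all lower, by 1.07 (SE 0.26, adjusted p = 0.00354 in limma). Without the livers numbered 2 the difference was -0.98 (adjusted p = 0.0804). At 20 h the X20 livers held 38.1, 40.2, 31.7, 37.1, 20.7 and 15.2 and the S20 livers 47.7, 41.9 and 41.6, with a difference of -0.60 that was not called (adjusted p = 0.123). It was called with replicates 4 to 6 of X20 alone (-0.94, adjusted p = 0.00857). S10 and S20 came from 1 period and X10 and X20 from 2, and the part of the period in these differences was not tested. *Igfals* was lower than in C0 also in X28 (-0.59, lost in 8 of 22 alternatives) and X48 (-0.58, lost in 2 of 22).

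*Igfbp3*, which encodes the main carrier of circulating IGF1 and is made largely by non-parenchymal cells of the liver, was called lower than C0 in every PH group analysed from 10 to 72 h. The C0 livers were at 3.81 to 8.82 (median 5.61), and the highest of them, replicate 8, also held the highest summed Kupffer cell and macrophage (105.5) and neutrophil (46.7) markers of C0, whose part in that value was not tested. By 28 h after PH the livers held 0.848, 0.947 and 1.1, and from then to 72 h every PH liver was between 0.747 and 2.08, below every C0 liver. The differences from C0 were -2.26 in X28 (4.78-fold lower), -1.75 in X36, -2.01 in X44, -2.13 in X48 and -2.20 in X72.

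In sham livers *Igfbp3* was 1.11, 1.14 and 1.23 lower than C0 at 10, 20 and 48 h, and at the same hours after PH it was lower by 0.73, 1.09 and 2.13. The S48 livers were at 2.00, 2.30 and 2.35 and the X48 livers at 0.747, 0.845, 1.52, 1.28 and 1.13, with no overlap and a difference of -0.89 (SE 0.24, adjusted p = 0.00177 in limma), called in all 19 alternatives. X28 was 1.78 lower than X4 at the same clock hour (adjusted p = 2.8e-07), and X44 0.92 lower than X20 (adjusted p = 0.00163). One week after PH the level was 6.64, 4.27 and 6.64, within the range of C0. Summed endothelial markers were at 17.1 to 22.1 in X48 against 23.3 to 28.0 in S48, with 0 of 7 called, Kupffer cell and macrophage markers at 18.4 to 34.8 against 23.3 to 36.8, with 0 of 7 called, and stellate markers at 48.0 to 92.5 against 56.3 to 60.5, with 2 of 7 higher. In X48 against S48 0 markers of these 3 lists were called lower, where 2.69% of all genes were lower and 24.5% higher. The list medians were -0.18, -0.37 and 0.36, beside 0.27 for all genes. Against C0 endothelial markers were lower in 5 of 7 in S10, 0 of 7 in X28 and 2 of 7 in X36, and stellate markers in 5 of 7, 4 of 7 and 2 of 7. Of all genes, 11.2%, 11.3% and 9.29% were lower in these groups. The part of cell numbers in the *Igfbp3* differences was not tested.

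**Figure D4:**
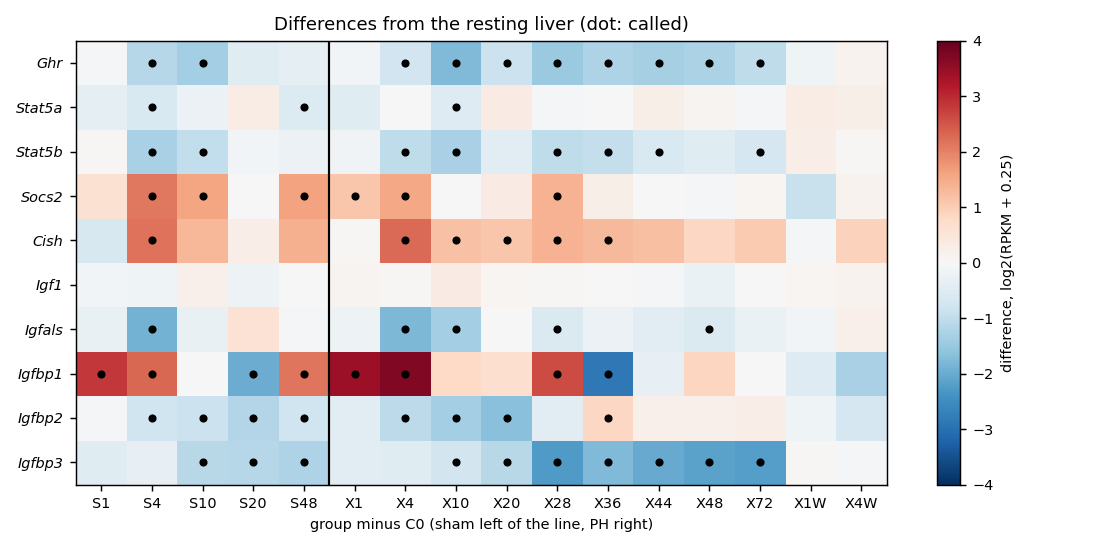
Difference of each sham and PH group from C0 for each gene, as log2(RPKM + 0.25) in colour (red higher, blue lower), with dots on called differences. *Ghr* is lower in every PH group from 4 to 72 h and *Igfbp3* in every one from 10 to 72 h, while the *Igf1* row holds no dot.

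*Igfbp1*, the insulin-repressed binding protein gene, rose within 1 h of either operation and had the widest range of the 10 genes. C0 livers held 32.4 to 131 (median 53.1). The X1 livers were at 698, 851, 781, 790, 588 and 512 and the S1 livers at 375, 223, 492, 769, 625.3 and 441, all above C0, with differences of 3.43 (10.8-fold) and 2.82. With 1 triplicate of S1 the latter was 2.42 in replicates 1 to 3 and 3.21 in replicates 4 to 6. The X4 livers, at 931, 701 and 908, were 4.26 above C4 (19.1-fold, adjusted p = 6.08e-07 in limma) and S4, at 683, 240, 220, 280 and 317, 2.85 above C4. X4 and S4 did not overlap, yet their difference of 1.40 (SE 0.63) was not called (adjusted p = 0.134).

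The level then moved down and up again. S20 livers fell to 11, 25.7 and 14.9, below every C0 liver (-1.97, lost in 4 of 22 alternatives), and X20 livers were at 35.2, 85.2, 70.6, 85.1, 572 and 109. All 6 of these exceeded all 3 sham livers, by 2.64 (6.24-fold, SE 0.61, adjusted p = 0.00229 in limma). The call was lost only with a fit restricted to the 2 groups (adjusted p = 0.0702). X28 was high again at 387, 452 and 356 (2.62 above C0), and X36 low at 5.33, 5.54, 6.70, 15.9, 5.72 and 23.3, 7.19-fold below C0. These groups were collected at different clock hours (ZT6 and ZT14), and no sham or untreated liver of ZT14 was analysed here. S48 livers stood at 345, 196 and 331, above C0 by 2.13 (adjusted p = 0.0064, lost in 3 of 22 alternatives), whereas X48 livers spread from 31.0 to 395 and were called neither against S48 nor against C0.

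*Igfbp2*, whose product is the other small-complex carrier of IGFs, fell first and after PH later rose from its low point. C0 livers ran from 113 to 231 (median 208), with replicates 4 to 6 at 113 to 124 below the other 6 livers. By 20 h the level was at 61.9, 93.4 and 77.6 in S20 and at 72.0, 49.1, 95.4, 44.1, 45.2 and 38.0 in X20, below every C0 liver, and it was 1.18 and 1.68 lower than C0. It had been lower already at 4 h, by 1.44 in S4 and 1.67 in X4 against C4 of the same hour (adjusted p = 3.5e-06 and 1.64e-06 in limma). Against C0 the 4-h differences were smaller, at -0.81 in S4 and -1.04 in X4, and the livers overlapped. These calls were lost in 2 and 1 of 22 alternatives.

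After PH *Igfbp2* then turned upward. X36 livers held 271, 397, 302, 208, 345 and 372 and exceeded C0 by 0.83 (adjusted p = 0.000116 in limma), although this was 0.48 and no longer called with every library at the same median. The C4 livers, without surgery, were at 247 to 293, within the range of X36. They too were all above C0, by 0.63, which was not called (adjusted p = 0.058 in limma). X36 fell at ZT14, an hour with no sham or untreated liver here, so surgery and hour cannot be told apart. X44, at 281, 172 and 164, was 1.87 above X20 of the same clock hour (adjusted p = 8.05e-09). Against C0, X44, X48 and X72 were not called (0.20, 0.21 and 0.26, beside medians of 0.23, 0.24 and 0.21 over all genes). In sham livers the level was still low at 48 h, at 102, 87.8 and 111, all below C0 (-0.80, lost in 4 of 22 alternatives), whereas X48 was at 144, 298, 220, 226 and 155. PH livers were all higher, by 1.01 (SE 0.26, adjusted p = 0.00107). Without the livers numbered 2 the difference was 0.78 (adjusted p = 0.0506).

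The difference between PH and sham was itself compared between 48 h and 10 h. It changed for 3 of the 10 genes, against 23.1% of all genes. *Igfbp2* went from -0.51 at 10 h to 1.01 at 48 h, a change of 1.53 (SE 0.36, adjusted p = 0.000895 in limma) that was called in all 19 alternatives. *Igfbp3* went from 0.38 to -0.89, and *Stat5a* from -0.29 to 0.65. Their changes were -1.27 (adjusted p = 0.00273) and 0.94 (adjusted p = 0.0145). The former was lost without the livers numbered 2 (-0.98, adjusted p = 0.0863), and the latter without those numbered 1 (0.69, adjusted p = 0.183) or 3 (0.84, adjusted p = 0.121) and with the same median in every library (0.49). On that scale the share of called genes that were higher went from 94% to 36.5% and *Ghr*, *Igf1* and *Igfbp1* changed too (-0.94, -0.84 and -2.56).

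By 4 weeks the axis could be set against the untreated livers labelled 4 weeks, C4W, where 0 of 10 genes were called with limma and 0.065% of all genes were. At an unadjusted p under 0.05, 2 of the 10 passed. *Cish* was at 0.695 and 7.32 in the X4W livers against 0.182 and 0.133 in C4W, a difference of 2.72 (SE 0.89, adjusted p = 0.664), and *Igf1* at 51.8 and 59.1 against 39.2 and 39.8 (0.48, adjusted p = 1). Between 48 and 72 h after PH, where 5.96% of all genes were called (37.4% of them higher, or 61% with the same median in every library), limma called 0 of the 10, with 0 at an unadjusted p under 0.05.

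Ordered by group mean on the log2(RPKM + 0.25) scale, *Ghr* was highest in X4W and lowest in X10, *Stat5a* highest in C4W and lowest in S4, *Stat5b* highest in X1W and lowest in X10, *Socs2* highest in S4 and lowest in C4W, *Cish* highest in X4 and lowest in C4W, *Igf1* highest in X10 and lowest in C4W, *Igfbp3* highest in X1W and lowest in X28, *Igfals* highest in S20 and lowest in S4, *Igfbp1* highest in X4 and lowest in X36, and *Igfbp2* highest in X36 and lowest in X20. Neighbours in these orders seldom separated. Of the 18 neighbouring pairs for each gene, the livers overlapped in 16 for *Ghr*, *Cish* and *Igfbp2*, in 17 for *Igfals* and *Igfbp1* and in all 18 for the other 5 genes.

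Other genes around the receptor are given by list. Of 11 genes of growth hormone signalling and its regulators, 1 was called higher and 0 lower in X48 against S48, where 24.5% of all genes were higher and 2.69% lower, with a list median of 0.17 beside 0.27 for all genes. It was *Adam17* (0.57), whose protease sheds the receptor from the cell surface. *Jak2*, the receptor's kinase, differed by 0.33 and *Prlr*, the prolactin receptor, by -0.22, and neither was called. In the earlier PH-against-sham comparisons 0 of the 11 were called, except *Prlr* at 10 h (-0.81, adjusted p = 0.0477 in limma). Of all genes, 0.65% to 8.64% were called in these comparisons. Against C0, where 30.4% of all genes were higher and 7.66% lower, X48 was higher in 4 of the 11 and lower in 1, namely *Socs3* (2.90), *Stat3* (1.37), *Ptpn1* (1.31), *Adam17* (1.02) and *Bcl6* (-1.67), named after their values were seen. In S48 against C0, 3 of the 11 were higher and 1 lower, against 3.83% and 5.05% of all genes. *Socs3* encodes a cytokine-induced inhibitor of JAK signalling and *Bcl6* a repressor that opposes STAT5 at shared targets.

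Among 14 genes for IGF and insulin receptors, ligands, further binding proteins and adaptors, 10 passed the filter, and *Igf2*, *Igf1r*, *Pappa* and *Pappa2* did not. In X48 against S48, 2 of the 10 were higher and 0 lower, against 24.5% and 2.69% of all genes, *Igf2r* (0.66), which clears IGF2, and *Grb14* (0.52), an adaptor that dampens the insulin receptor, with a list median of 0.18 beside 0.27. *Insr*, the insulin receptor, differed by -0.10 and *Irs2*, its docking protein, by -0.33, neither called. At 4 h 2 of the 10 were higher after PH, *Irs2* (1.45) and *Grb14* (0.66), against 3.16% of all genes. At 1, 10 and 20 h 0 were called in either direction with limma, against 0.65%, 7.02% and 7.11% of all genes.

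Among genes of the insulin and fasting response, *Foxo3*, a FoxO transcription factor, was lower in X48 than in S48 (-0.65, adjusted p = 0.0148 in limma). At 4 h *Pdk4*, a kinase that restrains pyruvate oxidation, was higher after PH (3.56), as was *Ppargc1a* (0.97), a coactivator of gluconeogenic genes. At 10 h *Ppargc1a* was higher again (1.45). At 20 h, when *Igfbp1* was higher after PH, *Pck1*, the gluconeogenic enzyme, was higher (1.45) and *Srebf1*, a regulator of lipid synthesis, lower (-1.44). Whether these genes and *Igfbp1* share a cause was not tested.

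The pulsed release of growth hormone in males keeps a set of liver genes higher in males than in females through STAT5B. In X48 against S48, 4 of 9 such genes were lower and 0 higher, against 2.69% and 24.5% of all genes, *Hsd3b5* (-3.44), *Elovl3* (-1.92), *Mup20* (-1.21) and *Cyp2d9* (-0.68), with a list median of -0.81 beside 0.27. Against C0 all 9 were lower in X48 (7.66% of all genes; median -1.85 beside 0.24) and all 9 in X72 (6.59% of all genes; median -2.56 beside 0.21), and 6 of 9 were lower in S48, where 8.88% of all genes were called in either direction. Earlier, 5 of 9 were lower in S4 and 2 of 9 in X4 (22.7% and 26.9% of all genes). Both S10 and X10 were lower in 8 of 9 (11.2% and 15.2%). S20 was lower in 1 of 9 and X20 in 8 of 9 (4.29% and 7.63%). In X10 against S10, 1 of 9 was lower (3.62% of all genes). One week after PH 5 of 9 were lower than in C0 (4.48% of all genes; median -1.05 beside 0.12). *Ghr* was not called there (-0.17). At 4 weeks 0 of 9 were called lower (2.09% of all genes). Of 12 genes higher in female liver, 10 passed the filter. In X48 against S48, 2 were higher, *Cyp3a44* (0.97) and *Cyp3a41a* (0.64), and 1 lower, *Fmo2* (-0.78). Against C0, 3 were higher in X48 (*A1bg*, *Acot3* and *Cux2*, named after their values were seen) and 8 in X72, against 30.4% and 26.6% of all genes, and 0 were lower in either. Earlier, 2 were higher and 4 lower in X10 (21.2% and 15.2% of all genes) and in X20 (16.5% and 7.63%). In S10 4 were higher and 3 lower (17.9% and 11.2%), and in X28 3 and 3 (13.6% and 11.3%). In X36 6 were higher and 0 lower (25.7% and 9.29%). *Hsd3b5* had been lower after PH already at 10 h (-4.64) and 20 h (-3.06). Whether these differences follow that of *Ghr* was not tested.

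**Figure D5:**
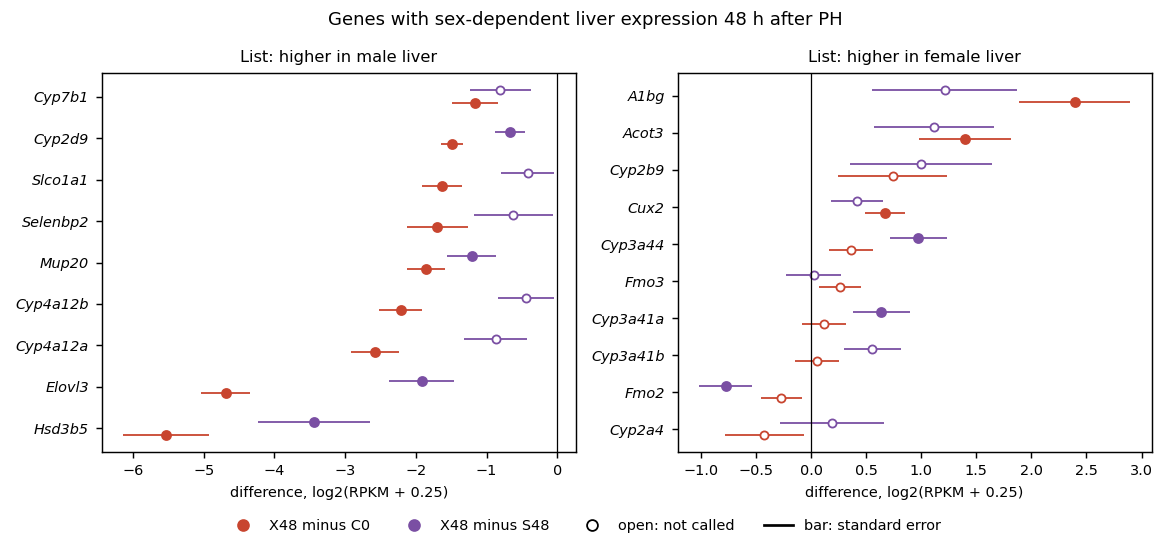
Differences of X48 from C0 (red) and from S48 (purple) for genes higher in male liver (left) and in female liver (right), as log2(RPKM + 0.25), with bars for the standard error and open points for differences that were not called. All 9 male-biased genes lie left of 0 against C0, with *Hsd3b5* the farthest at -5.53.

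For each gene the 3 detected genes with the most similar course over the 80 livers were named by Pearson r on the log scale, among 10513 candidates, as a description of libraries that share groups and depth. *Ghr* was most like *Slc22a30* (0.944), *Cat* (0.943) and *1700001C19Rik* (0.921), *Stat5b* like *Rnf125* (0.91), *C2cd2* (0.898) and *Mreg* (0.892), and *Igfals* like *Apol7a* (0.889), *Adi1* (0.882) and *Lrrc3* (0.879). Closest to *Igfbp2* were *Hsd17b6* (0.874), *Cyb5* (0.814) and *Brp44l* (0.774), closest to *Igfbp1* *3110043O21Rik* (0.832), *Fam134b* (0.793) and *Ppp1r15a* (0.788), and closest to *Igfbp3* *5033411D12Rik* (0.813), *Car1* (0.812) and *Hamp2* (0.806). *Cish* was followed by *Wdr45l* (0.733), *B4galt1* (0.713) and *Socs3* (0.705), *Stat5a* by *Lrrc8d* (0.757), *Pvrl1* (0.734) and *Nav2* (0.703), and *Socs2* by *Gm9847* (0.978), *Wdr45l* (0.613) and *3110082I17Rik* (0.585). *Gm9847* is the gene that shares sequence with *Socs2*, so that its likeness cannot be told apart from shared reads. *Igf1*, which varied least, had the weakest nearest gene, *Manea* (0.548), followed by *Gabbr2* (0.519) and *Zfp655* (0.514).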

How the data were processed

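Poly(A) RNA of individual livers was sequenced as 100-nt single-end reads. The authors aligned them to mm9 with TopHat2 2.0.13 and Bowtie2, used SAMtools 0.1.19, counted reads per Ensembl gene with featureCounts, sharing multi-mapped reads, and deposited log2 RPKM values. Genes without reads are listed at -14.29. Of 84 columns, 80 matched a labelled liver and 4 matched no label and were not used, and 7 of 87 labelled samples had no column here. Differences were fitted with limma 3.58.1 in R 4.3.3, with 1 coefficient per group in 1 fit over all 80 libraries and a trend, on log2(RPKM + 0.25), for the 15396 genes above a log2 RPKM of -1.5 in at least 1 library, and p-values were adjusted by Benjamini-Hochberg within each comparison. The method was tested on simulated data. Low values were whole reads within 0.05 for a median of 83.3% of values (lowest 44.0%, in X28 replicate 2), so counts were not recovered for a count test, and the depths are estimates. All 10 genes and 6 listed genes (*Jak2*, *Igf1r*, *Insr*, *Igf2*, *Irs2* and *Prlr*) were named whatever their values, with the 4 largest called differences of each list in X48 against S48 and the 3 most similar genes. For the insulin and fasting list, the results of 1 gene are not reported here, so no count over that list is given. Other pseudocounts, filters, scalings, blocks, control sets and left-out livers were tried. Members and lists were chosen with earlier results of these data known. Python 3.11.15 with numpy 2.4.6, pandas 2.3.3 and matplotlib 3.10.9 drew the figures.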

Additional observations from a re-analysis of the deposited data

Results flagged for a closer look

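Livers were looked at for values far from the rest of their group in the 80 sets of 1 gene and 1 group with 4 to 10 livers, of which 4 had one, where chance gives about 1 in 20. *Ghr* was lowest in X1 replicate 4 (34.7, next 46.1). *Stat5a* was lowest in X20 replicate 5 (1.57, next 2.24). *Socs2* was highest in C0 replicate 7 (8.95, next 1.96), and *Cish* was highest in S1 replicate 3 (1.79, next 0.754).

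The PH-against-sham difference changed between 10 and 48 h, by a test of the change itself in limma, for *Stat5a* (0.94), *Igfbp2* (1.53) and *Igfbp3* (-1.27).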

How the results depend on the processing

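Counts are of calls among the 10 genes. The PH-against-sham comparisons held 8 of 50, post-PH against C0 42 of 110, sham against C0 22 of 50, the same-hour pairs 18 of 70 and the change between 10 and 48 h 3 of 10. Leaving out each replicate number in turn gave 5 to 9, 36 to 47, 16 to 24, 17 to 20 and 2 to 4. With every library at the same median the last became 5. Chosen after seeing the data were fits with replicates 1 to 3, or 4 to 6, of the groups collected in 2 periods. Replicates 1 to 3 gave 5 calls in the change between 10 and 48 h and turned *Stat5a* in X1 against S1 from -0.09 to 0.61, and replicates 4 to 6 gave 14 calls in PH against sham. The cause was not tested. Same-numbered livers of different groups did not deviate together in every pair (correlations of -0.186 to 0.273 over 17 pairs of same-numbered livers in 5 comparisons), so the numbers do not pair the livers, and a fit with the replicate number as a block gave 7, 44, 23, 21 and 3 calls.

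RPKM are relative to each library's total, so the direction of small differences rests on the scaling. Transcripts near 1 RPKM, such as *Igfbp3* after PH and *Cish* and *Socs2* at rest, rest on the fewest reads. Groups of 2 or 3 livers borrow the spread of the others.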
